A study of Mus musculus with 4 samples.

Results

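Antigen presentation on MHC class II was examined through 10 genes: the chain genes H2-Aa, H2-Ab1 and H2-Eb1, the invariant chain gene Cd74, the peptide-editing genes H2-DMa, H2-DMb1 and H2-Oa, the transactivator gene Ciita, and the costimulatory genes Cd80 and Cd86. The members were taken by gene symbol, and all 10 of them were among the 18781 genes of the deposited expression table. RNA had been sequenced from mature adipocytes of C57BL/6 mice at postnatal day 30, with 2 libraries from the dermal fat of the dorsal skin and 2 from the subcutaneous fat of the groin (inguinal). The labels give both groups the same strain and age and name no other allele and no treatment, and no source used here gives the sex of the animals or says whether animals were pooled. Adipocytes were freed with Collagenase IV and DispaseII and collected as the floating layer, with no sort by surface marker described. Adipocyte transcripts were abundant in both depots, with Adipoq, which encodes adiponectin, at 3854 ± 155 (SD, n = 2) normalized CPM (counts scaled to library size) in dermal and 3144 ± 254 CPM (n = 2) in inguinal libraries.

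MHC class II molecules are pairs of an alpha and a beta chain that display peptides from endosomes to CD4+ T cells. They are assembled on the invariant chain, whose remaining fragment is exchanged for peptide with the help of the DM heterodimer, and DO restrains DM. Dendritic cells, B cells and macrophages are the main cells that carry class II, and adipocytes have also been described to express it. The coactivator CIITA governs transcription of the chain, invariant chain and DM genes in concert with factors bound to shared promoter boxes, and interferon-gamma is its best known inducer outside these cells. In H2-b mice such as C57BL/6 the H2-Ea gene is silent, so that the beta chain from H2-Eb1 lacks its usual partner.

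The libraries held 10127125 to 12730013 reads assigned to genes. A gene entered the test when 2 or more of the 4 libraries had 1 CPM or more, which held for 12797 genes. The test was limma on log2(CPM + 0.5), two-sided, with Benjamini-Hochberg adjustment over all tested genes and a threshold of 0.05. A log2 fold change is dermal over inguinal on that scale, which understates the change of low genes. The labels do not tie the 2 libraries of a depot to separate animals, and the p-values therefore reflect the scatter of these libraries alone, part or all of which may be technical. The number of all genes called was 2094, falling to 1023 without dermal replicate 1 and 1037 without dermal replicate 2.

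Of the 10 members, 9 were tested and 1, H2-Oa, lay below the filter. Cd86, H2-Eb1, H2-Ab1 and Cd74 were higher in dermal libraries, and the other 5 tested members did not pass. Of all tested genes 7.56% were called higher in dermal libraries. The same 4 members were called with edgeR and with DESeq2 on the recovered reads, where 7.21% and 6.43% of all tested genes were called in that direction. Without dermal replicate 1 the count of members called was 2, and without dermal replicate 2 it was 1. With limma 0 members were called higher in inguinal libraries, against 8.8% of all tested genes, and the count was also 0 at an unadjusted p under 0.05, with edgeR (8.85% of all tested genes) and with DESeq2 (9.08%). Each of the 9 tested members had both dermal values above both inguinal values, an order found in 31.6% of all tested genes. Ciita and Cd80 owed their passage of the filter to the dermal libraries, since both were under 1 CPM in each inguinal library, and their order is therefore not independent of the filter. The median log2 fold change of the 9 members was 0.81, and that of all tested genes was 0.02. In these bulk libraries, a difference in the number of cells of a type and a difference in RNA per cell cannot be told apart.

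**Figure D1:**
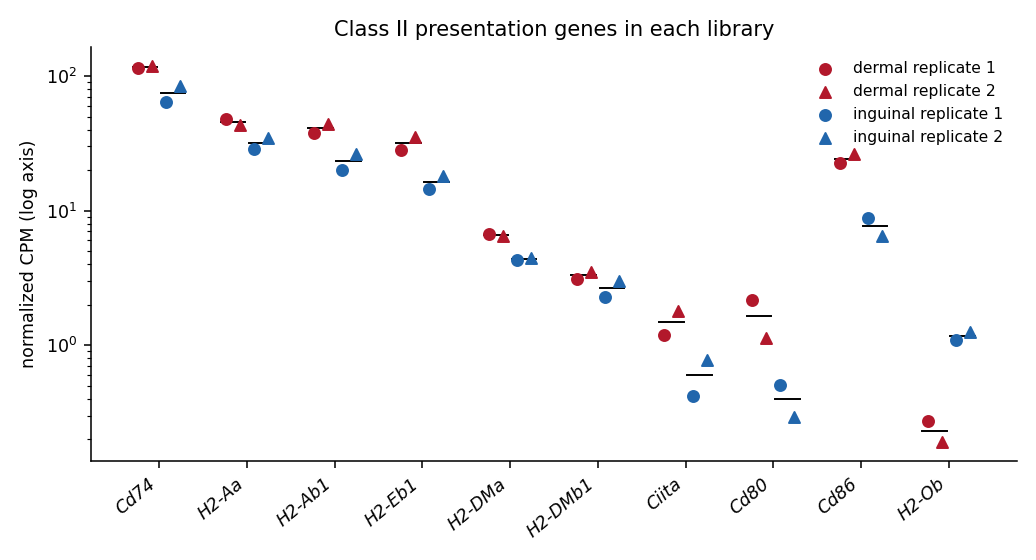
Normalized CPM on a log axis of the 9 tested members and of H2-Ob in each of the 4 libraries, with circles for replicate 1, triangles for replicate 2 and a black line at the mean of the 2 libraries of a depot. Dermal points lie above inguinal points for the 9 members and below them for H2-Ob. H2-Oa, with 1 read in all, is not drawn.

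The 3 classical chain genes were expressed at intermediate levels. H2-Aa, which encodes the alpha chain of I-A, measured 47.9 and 43.5 CPM in dermal replicates 1 and 2 and 28.9 and 34.4 CPM in inguinal replicates 1 and 2. H2-Ab1, which encodes the beta chain of I-A, stood at 38.0 and 43.9 CPM in the dermal and at 20.1 and 26.6 CPM in the inguinal libraries. H2-Eb1, the beta chain gene of I-E, stood at 28.4 and 35.1 CPM in the dermal and at 14.4 and 18.2 CPM in the inguinal libraries. All 3 genes were thus lowest in inguinal replicate 1, and the depots did not overlap. H2-Eb1 overlaps the antisense gene Gm20513 over 2204 bases, and reads of the 2 genes may not have been told apart. H2-Eb1 was higher in dermal libraries, with a log2 fold change of 0.94 (SE 0.19, adjusted p = 0.0227 with limma), as was H2-Ab1 with 0.81 (SE 0.18, adjusted p = 0.0314). H2-Aa did not pass, with 0.53 (SE 0.15, adjusted p = 0.0648) and a 95% interval of 0.16 to 0.90 before any adjustment. Leaving out dermal replicate 2 ended the H2-Eb1 call (adjusted p = 0.132) and the H2-Ab1 call (0.168). The H2-Ab1 call also ended on leaving out dermal replicate 1 (adjusted p = 0.0820) or the intensity trend (0.0605). H2-Aa passed without inguinal replicate 2 (log2 fold change 0.65, adjusted p = 0.0247). Within a library the ratio of H2-Aa to H2-Ab1 levels, in CPM per kilobase of annotated exon, was 0.851 and 0.670 in dermal and 0.972 and 0.876 in inguinal libraries, so that the 2 chains of I-A had levels of the same order in all 4 libraries.

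These genes lie together on mouse chromosome 17, and class II promoters are known for a pair of short sequences, the X and Y boxes. In GRCm38 with the GENCODE M21 annotation, H2-Ab1 spans 34257689 to 34269419 on the plus strand, H2-Aa 34282744 to 34287823 on the minus strand and H2-Eb1 34305867 to 34316674 on the plus strand. Promoter sequences came from RefSeq (GRCm38.p6) and matched 6 of the 10 members; H2-Ab1, Ciita and Cd86 were among those with no entry. The 250 bases before each start were searched on both strands for the X box core CTAGNAAC, where N is any base, the Y box core GATTGG, to which the factor NF-Y binds, and the cyclic AMP response element TGACGTCA, which are 3 motifs that do not overlap one another in the stretches shown. The letters were settled after these sequences had been looked at. Among 32851 promoters, 3.06% held the X core, 14.6% the Y core and 1.55% the TGACGTCA element. The stretches from 130 to 21 bases before the start are shown 5′ to 3′ on the strand of the gene for the members with a Y core in that stretch and for H2-Ob, because they show the spacing of the boxes. Capitals mark these motifs.
H2-Eb1, chr17:34305737-34305846, plus strand: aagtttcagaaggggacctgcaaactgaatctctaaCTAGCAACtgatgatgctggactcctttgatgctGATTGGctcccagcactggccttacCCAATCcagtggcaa
H2-DMb1, chr17:34153061-34153170, plus strand: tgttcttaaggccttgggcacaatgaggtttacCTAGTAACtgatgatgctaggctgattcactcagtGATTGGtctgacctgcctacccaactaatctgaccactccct
H2-Ob, chr17:34238775-34238884, plus strand: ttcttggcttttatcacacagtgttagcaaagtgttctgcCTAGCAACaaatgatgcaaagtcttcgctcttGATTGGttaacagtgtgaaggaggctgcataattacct
H2-Aa, chr17:34287844-34287953, minus strand: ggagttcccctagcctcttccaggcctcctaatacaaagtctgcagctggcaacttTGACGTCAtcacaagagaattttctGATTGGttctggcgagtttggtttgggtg
H2-Oa, chr17:34092249-34092358, plus strand: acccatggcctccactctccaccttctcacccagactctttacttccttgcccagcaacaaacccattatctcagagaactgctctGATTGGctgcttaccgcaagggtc

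The X core began 34 bases before the Y core in H2-Eb1, 35 bases before it in H2-DMb1 and 32 bases before it in H2-Ob. An X core 20 to 45 bases ahead of a Y core, both on the strand of the gene, occurred in 8 of the 32851 promoters (0.0244%), a spacing range chosen after the 3 promoters had been seen. H2-Aa held the TGACGTCA element 25 bases ahead of its Y core and no exact match to the X core, and H2-Oa held the Y core alone. H2-DMa had 2 listed starts, of which 1 held a Y core at position -199 relative to the start, and Cd80 held none of the 3 motifs. A match describes letters in this window and shows no binding. Of the genes shown above with both boxes, 1 was higher in dermal libraries (H2-Eb1), and 2 did not pass, H2-DMb1 with a positive and H2-Ob with a negative estimate. Of the other class II chain genes, H2-Eb2, which lay below the filter, held both cores in the opposite order, the X core at position -12 and the Y core at -101.

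Cd74 encodes the invariant chain, the chaperone of newly made class II, and was the most abundant member. It measured 115 and 118 CPM in dermal replicates 1 and 2 and 64.3 and 84.4 CPM in inguinal replicates 1 and 2. The dermal values lay close together, the inguinal values lay apart, and the depots did not overlap. The log2 fold change was 0.66 (SE 0.16, adjusted p = 0.0396 with limma). This call did not hold without dermal replicate 1 (adjusted p = 0.148), without dermal replicate 2 (0.170), without inguinal replicate 1 (0.0538), without a filter (0.0576) and without the intensity trend (0.0835), whereas edgeR (0.0464) and DESeq2 (0.0258) on the recovered reads kept it. Per kilobase of annotated exon, Cd74 reached 69.5 CPM in the dermal and 44.3 CPM in the inguinal libraries, against 12.04 and 8.33 CPM for H2-Aa, 15.96 and 9.08 CPM for H2-Ab1 and 16.3 and 8.40 CPM for H2-Eb1. The ratio of Cd74 to H2-Aa per kilobase was 5.44 and 6.15 in dermal and 5.03 and 5.55 in inguinal libraries, and these ranges overlapped. Cd74 lies outside the MHC, on chromosome 18 from 60803848 to 60812652, and the microRNA gene Mir5107 lies within it. It had no promoter entry.

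The peptide-editing genes were expressed at a lower level and did not pass. H2-DMa, the alpha chain gene of DM, stood at 6.74 and 6.45 CPM in the dermal and at 4.31 and 4.46 CPM in the inguinal libraries, with a log2 fold change of 0.54 (SE 0.21, adjusted p = 0.134). H2-DMb1, a beta chain gene of DM, stood at 3.09 and 3.51 CPM in the dermal and at 2.28 and 3.01 CPM in the inguinal libraries, with 0.28 (SE 0.26, adjusted p = 0.508) and a 95% interval of -0.35 to 0.92. The dermal values of both genes were above the inguinal values, by less for H2-DMb1, whose depots were separated by less than the distance between its inguinal libraries. H2-DMb1 rested on 71 reads in dermal and 58 reads in inguinal libraries, a ratio of normalized levels of 1.26 with a 95% exact counting interval of 0.878 to 1.81. Its near copy H2-DMb2 had 2 and 5 reads. Of the 50-base words of H2-DMb1 transcripts, 22.65% also occurred in H2-DMb2, so part of the reads of either gene could have been assigned to both or neither. H2-DMa overlaps Brd2 on the opposite strand by 3094 bases. Brd2, the gene of a bromodomain protein, stood at 228 and 274 CPM in the dermal and at 418 and 480 CPM in the inguinal libraries (adjusted p = 0.0164 with limma; 0.116 without dermal replicate 1 and 0.0507 with quantile normalization). No source used here gives the strand setting of the read counting, and the share of Brd2 reads in H2-DMa was not tested.

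The genes of DO, the inhibitor of DM that is typical of B cells, stood apart from the other chain genes. H2-Oa had 0 reads in both dermal libraries, 1 read in inguinal replicate 1 and 0 reads in inguinal replicate 2. A count of 0 allows up to 3 reads, or 0.273 and 0.285 CPM in the dermal libraries, counting error only, and a difference was not detectable at this depth. H2-Ob, the beta chain gene of DO and no member of the set, stood at 0.273 and 0.190 CPM in the dermal and at 1.10 and 1.26 CPM in the inguinal libraries. Both inguinal values of H2-Ob were above both dermal values, the reverse of the order in the 9 tested members. From 5 and 26 reads, the ratio of inguinal to dermal levels was 5.05 with a 95% exact counting interval of 1.91 to 16.8. H2-Ob passed the filter through the inguinal libraries alone and did not pass the test (-1.20 on the log2 scale, SE 0.34, adjusted p = 0.0605 with limma), whereas edgeR on the recovered reads called it (adjusted p = 0.0454) and DESeq2 did not (0.194). The summed level of 7 B cell markers, all of them below the filter, was 0.728 and 0.759 CPM in the dermal and 2.62 and 3.97 CPM in the inguinal libraries; the part of B cell RNA in H2-Ob was not tested. Of these markers Ms4a1, Cd79a, Pax5 and Blk had 0 reads in both dermal libraries and 9, 14, 5 and 2 reads in inguinal libraries. Cd22 went the other way, with 7 reads in dermal and 5 in inguinal libraries. Cd79b, part of the B cell receptor complex, had 8 reads in dermal and 25 in inguinal libraries.

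Ciita, which encodes the transactivator that switches the class II genes on, was close to the limit of detection. It stood at 1.18 and 1.80 CPM in the dermal and at 0.422 and 0.776 CPM in the inguinal libraries, from 13, 19, 5 and 8 reads. The depots did not overlap, yet the gene did not pass (0.86 on the log2 scale, SE 0.36, adjusted p = 0.154 with limma, 0.146 with edgeR and 0.423 with DESeq2). The ratio of dermal to inguinal levels was 2.53 with a 95% exact counting interval of 1.29 to 5.26, which covers counting error only. Ciita lies on chromosome 16 from 10480059 to 10528418, and Dexi overlaps it on the opposite strand over 25888 bases, so some of these few reads may belong to Dexi.

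Cd86 and Cd80 encode the B7 ligands, which bind CD28 and CTLA4 on T cells and give or withhold the second signal of T cell activation. Cd86 stood at 22.6 and 26.2 CPM in the dermal and at 8.87 and 6.50 CPM in the inguinal libraries. The depots lay far apart, and the log2 fold change of Cd86 was 1.62 (SE 0.21, adjusted p = 0.00573 with limma). Its call held under all 14 alternatives tried, with log2 fold changes from 1.41 to 1.83. Cd80 stood at 2.18 and 1.14 CPM in the dermal and at 0.507 and 0.291 CPM in the inguinal libraries, from 24, 12, 6 and 3 reads. The depots did not overlap, but the dermal libraries differed widely from each other and Cd80 did not pass (1.23 on the log2 scale, SE 0.38, adjusted p = 0.0785). The ratio of dermal to inguinal levels of Cd80 was 4.12 with a 95% exact counting interval of 1.95 to 9.72, and that of Cd86 was 3.14 with 2.63 to 3.75, so the intervals overlapped. Relative to H2-Ab1 in the same library, in CPM, Cd86 stood at 0.593 and 0.596 in dermal and 0.441 and 0.245 in inguinal libraries. Both genes lie on chromosome 16, Cd86 from 36603869 to 36666081 and Cd80 from 38455561 to 38496335.

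**Figure D2:**
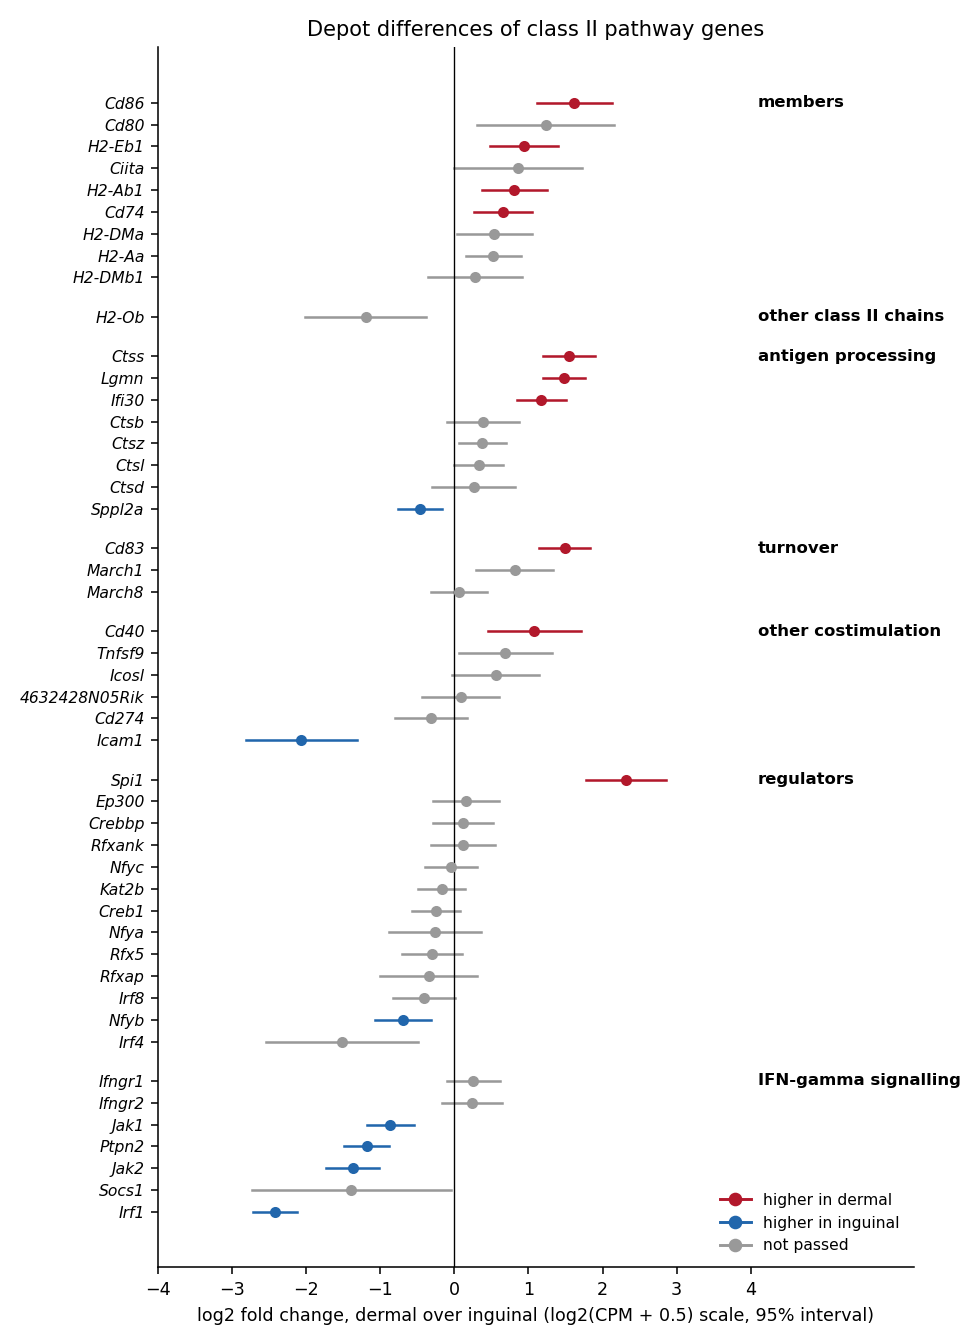
Log2 fold change, dermal over inguinal, of each tested gene of the class II pathway lists, with bars for the 95% interval of limma before adjustment for multiple tests. Red marks genes higher in dermal, blue genes higher in inguinal libraries and grey genes that did not pass at an adjusted p of 0.05. The label 4632428N05Rik is the older symbol of Vsir, and Spi1 (2.31) lies farthest to the right and Irf1 (-2.42) farthest to the left.

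Genes that prepare antigen for class II did not move as 1 group. Of 8 tested genes of endosomal processing, 3 were higher in dermal libraries, 1 was higher in inguinal libraries and 4 did not pass. Among all tested genes 7.56% and 8.8% were called in these 2 directions. The median log2 fold change of the list was 0.38. Lgmn, which encodes the asparaginyl endopeptidase legumain, stood at 205 and 201 CPM in the dermal and at 71.1 and 74.2 CPM in the inguinal libraries (1.48 on the log2 scale, SE 0.12, adjusted p = 0.00181). Ctss, the cathepsin S gene whose product trims the invariant chain, measured 96.2 and 80.0 CPM against 30.5 and 28.9 CPM (1.55, SE 0.15), and Ifi30, the gene of the lysosomal thiol reductase GILT, measured 61.4 and 55.8 CPM against 26.6 and 24.7 CPM (1.17, SE 0.14). The estimates of these 3 genes lay above those of all chain genes, from 0.28 to 0.94. The abundant cathepsin genes Ctsd (2438 ± 204 against 2071 ± 547 CPM) and Ctsb (1998 ± 41.4 against 1552 ± 340 CPM), lysosomal proteases of most cell types, did not pass. Sppl2a, whose product cleaves the last membrane-bound fragment of the invariant chain, was higher in inguinal libraries, at 82.9 and 86.8 CPM in the dermal and 113 and 122 CPM in the inguinal libraries (-0.47, SE 0.12, adjusted p = 0.0483). Its call did not hold without dermal replicate 1 (adjusted p = 0.305), without dermal replicate 2 (0.238), without inguinal replicate 2 (0.0831) and under 5 of the other alternatives.

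Turnover and costimulation genes outside the set also had calls in both directions. Cd83, whose product stabilizes class II and Cd86 at the surface, was higher in dermal libraries at 44.97 and 48.7 CPM against 16.04 and 16.7 CPM (1.49 on the log2 scale, SE 0.14, adjusted p = 0.00277). March1, the gene of a ubiquitin ligase that removes both from the surface, did not pass (10.1 and 9.01 against 5.83 and 4.65 CPM, adjusted p = 0.0500138 with limma). Alternatives fell on both sides of the threshold. The gene passed with scaling to library total (adjusted p = 0.0419), but not with DESeq2 (0.130) or without a filter (0.0932). The related March8 gave an adjusted p = 0.818 with limma. Of 6 tested costimulation and adhesion genes 1 was higher in dermal libraries, 1 was higher in inguinal libraries and 4 did not pass. These directions held 7.56% and 8.8% of all tested genes. Cd40, the receptor through which helper T cells license presenting cells, stood at 4.01 and 4.46 CPM in the dermal and at 1.94 and 1.55 CPM in the inguinal libraries (1.08 on the log2 scale, SE 0.26, adjusted p = 0.0374). The Cd40 call did not hold without dermal replicate 1 (adjusted p = 0.136), without dermal replicate 2 (0.196), without inguinal replicate 2 (0.0744), with DESeq2 (0.128), without a filter (0.0731) or with quantile normalization (0.0550). Icam1, an adhesion molecule of endothelial and other cells, was higher in inguinal libraries at 27.8 and 53.2 against 139 and 190 CPM (-2.07, SE 0.31), where the summed level of 6 endothelial markers was 1282 and 1990 CPM against 343 and 394 CPM in dermal libraries. The part of endothelial RNA in the Icam1 difference was not tested.

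The factors that occupy class II promoters were called about as often as all tested genes. The list held 13 tested genes of promoter factors, coactivators and regulators of Ciita in myeloid and lymphoid cells. Of these, 1 was higher in dermal libraries, 1 was higher in inguinal libraries and 11 did not pass. These directions held 7.56% and 8.8% of all tested genes. The median log2 fold change of the list was -0.25. Rfx5, Rfxap and Rfxank, the 3 genes of the X box factor RFX, had log2 fold changes of -0.30, -0.35 and 0.12, and Kat2b and Crebbp, the most abundant coactivator genes of the list, had -0.17 and 0.12. Nfyb, a subunit of the Y box factor NF-Y, was higher in inguinal libraries (13.3 and 12.7 against 21.2 and 21.5 CPM, log2 fold change -0.70, SE 0.16, adjusted p = 0.0311), and its call did not hold without dermal replicate 1 (adjusted p = 0.152), without dermal replicate 2 (0.185), with DESeq2 (0.0547) or with scaling to library total (0.0616). Spi1, the gene of the myeloid factor PU.1, was higher in dermal libraries, at 15.3 and 16.98 CPM against 2.45 and 3.30 CPM (2.31 on the log2 scale, SE 0.22, adjusted p = 0.00277). Spi1 is itself a marker of macrophages and other myeloid cells.

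Most listed genes of the interferon-gamma pathway lay on the inguinal side. Of 7 tested signalling genes 4 were higher in inguinal libraries and 3 did not pass, and of 14 further genes known to be induced by interferon-gamma 11 were higher in inguinal libraries and 3 did not pass, with medians of -1.19 and -1.49. Both shares lie above the 8.8% of all tested genes. Of the 14 induced genes, 13 had negative estimates and 1 a positive estimate. Ifi30, counted under processing and higher in dermal libraries, is not in this list. Irf1, a transcription factor gene that interferon-gamma induces and that acts on a Ciita promoter, stood at 145 and 143 CPM in the dermal and at 773 and 775 CPM in the inguinal libraries (-2.42 on the log2 scale, SE 0.12, adjusted p = 0.000664). Jak1, a kinase gene of the receptor complex, gave -0.86 (SE 0.13), a call that ended without dermal replicate 2 (adjusted p = 0.0824). Jak2, the partner kinase gene, gave -1.37 (SE 0.15), and Ptpn2, a phosphatase gene that dampens the pathway, -1.19 (SE 0.13). Cxcl10, a T cell chemokine gene, measured 68.9 and 64.1 against 425 and 347 CPM (log2 fold change -2.52), and the chemokine gene Cxcl9 gave -4.28. The GTPase genes Iigp1 and Irgm1 gave -3.73 and -2.17. The receptor genes Ifngr1 and Ifngr2 did not pass (0.26 and 0.24). Ifng itself had 0 reads in both dermal libraries, 1 read in inguinal replicate 1 and 2 reads in inguinal replicate 2. The class II chain, invariant chain and DM genes of the set, which interferon-gamma also induces through CIITA, had positive log2 fold changes of 0.28 to 0.94. Most of the 14 listed induced genes were lower in the dermal libraries.

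Neighbours of the class II genes were examined next. Between H2-DMb1 and H2-Ob lie the class I processing genes Tap1, Tap2, Psmb8 and Psmb9. Psmb8, an immunoproteasome subunit gene, was higher in inguinal libraries (30.2 and 25.1 against 47.7 and 39.7 CPM, log2 fold change -0.65, SE 0.17, adjusted p = 0.0467), and this call did not hold without dermal replicate 1 (adjusted p = 0.1003), without dermal replicate 2 (0.276), without inguinal replicate 1 (0.0854) and under 4 of the other alternatives. The peptide transporter genes Tap1 (-0.36) and Tap2 (-0.33) and the subunit gene Psmb9 (-0.60) did not pass. Of the 11 tested genes that start between H2-Oa and H2-Eb2, the 5 members had positive and the other 6 had negative estimates. These other genes include Brd2 and H2-Ob, which is itself a class II chain gene. H2-Ob passed the filter through the inguinal libraries alone, so its sign is not independent of the filter. Of all tested genes, 51.4% had positive estimates.

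**Figure D3:**
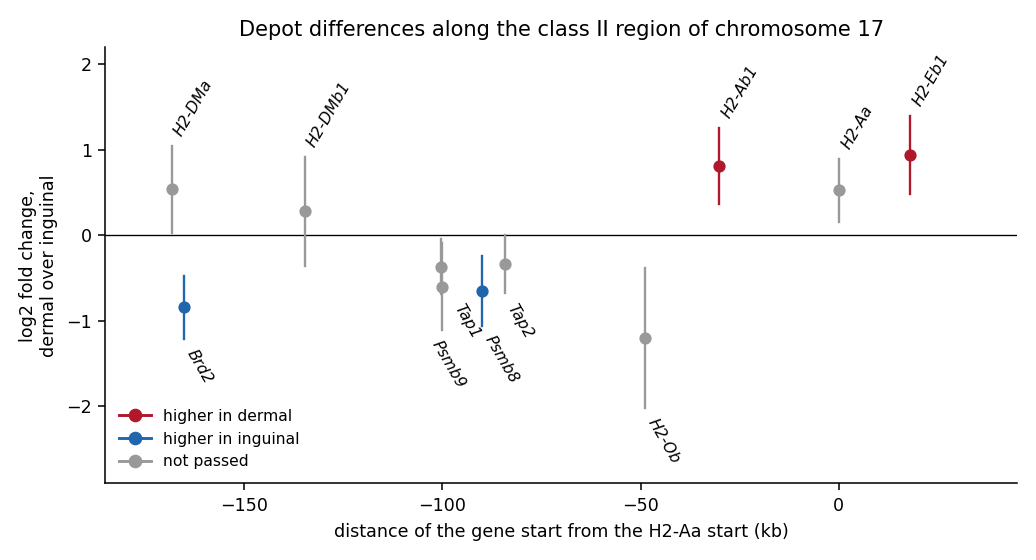
Log2 fold change, dermal over inguinal, with the 95% interval of limma before adjustment, of the tested genes of the class II region against the distance of their start from the start of H2-Aa in kilobases. Red marks genes higher in dermal, blue genes higher in inguinal libraries and grey genes that did not pass. The chain and DM genes of the set lie above 0, and Brd2, the class I processing genes and H2-Ob lie below it.

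Macrophage and pan-leukocyte markers were mostly higher in dermal libraries, like the 4 members that passed, whereas the B cell sum given above was higher in inguinal libraries. Of 18 tested macrophage markers 15 were higher in dermal libraries and 3 did not pass, with a median log2 fold change of 1.51. Of 7 pan-leukocyte markers 5 were higher in dermal libraries and 2 did not pass, with a median of 1.23. The share called in this direction among all tested genes was 7.56%. The summed level of the 19 measured macrophage markers was 2029 and 1873 CPM in the dermal and 727 and 678 CPM in the inguinal ones. That of the leukocyte markers was 189 and 171 against 71.5 and 75.6 CPM. Among the macrophage markers, log2 fold changes were 1.64 for Csf1r, the receptor gene for the growth factor CSF1, 2.13 for the complement gene C1qc and 1.71 for C1qa. The scavenger receptor gene Cd163 gave 1.48, the mannose receptor gene Mrc1 1.57 and the lysozyme gene Lyz2 1.42. Cd14, Mertk and Aif1 did not pass, at 0.06 to 0.35. The 15 markers that passed had estimates from 1.18 to 2.13. Of the tested members, Cd86 (1.62) and Cd80 (1.23) lay within this range, and the others, at 0.28 to 0.94, lay below it. Trem2, among the markers that passed, entered the test by its dermal values alone. Among the leukocyte markers Laptm5 gave 1.51, the adaptor gene Tyrobp 1.38, the Fc receptor subunit gene Fcer1g 1.52, Cd53 1.23 and Ptprc, the gene of CD45, 0.89. Leaving out dermal replicate 1 ended the calls of Cd53 (adjusted p = 0.0612) and Ptprc (0.135). Whether the members differ from these markers was not tested. Per 100 CPM of summed macrophage markers in the same library, Cd86 stood at 1.11 and 1.398 CPM in the dermal and 1.22 and 0.958 CPM in the inguinal libraries, which overlapped, and H2-Aa at 2.36 and 2.33 CPM in the dermal and 3.97 and 5.07 CPM in the inguinal libraries. On this scale 6 of the 9 tested members were higher in both inguinal than in both dermal libraries, as were 92.6% of all tested genes. Ciita, Cd80 and Cd86 overlapped, as did 6.03% of all tested genes. The part of macrophage number in the class II differences was not tested.

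Many dendritic and T cell markers lay below the filter. Of 10 measured dendritic cell markers 6 were tested, of which 1 passed toward dermal and 1 toward inguinal libraries. The shares called in these directions among all tested genes were 7.56% and 8.8%. Of these 6 markers, 5 had positive estimates and 1 a negative estimate, with a median log2 fold change of 0.92. Siglech, with a positive estimate, passed the filter by its dermal values alone. Positive estimates were found for 51.4% of all tested genes. Clec10a, a lectin gene shared with macrophages, stood at 48.4 and 48.5 CPM in the dermal and at 17.7 and 11.7 CPM in the inguinal libraries (1.71 on the log2 scale, SE 0.21). Zbtb46, a transcription factor gene of conventional dendritic cells that endothelial cells also express, measured 5.55 and 7.21 against 14.5 and 16.97 CPM (-1.25, SE 0.21, adjusted p = 0.0138), which missed the threshold without dermal replicate 1 (0.0626). Defining genes such as Flt3, Xcr1 and Clec9a stayed at or below 5 reads in each library. The summed level of 10 T cell markers was 7.56 and 7.49 CPM in the dermal and 7.77 and 7.95 CPM in the inguinal libraries. Among these, Cd4, the coreceptor gene for class II, measured 2.28 and 3.23 CPM against 0.591 and 0.873 CPM (1.39 on the log2 scale, SE 0.32, adjusted p = 0.0328), and the call did not hold without dermal replicate 1 (adjusted p = 0.0710), without dermal replicate 2 (0.188), without inguinal replicate 1 (0.0556) or with DESeq2 (0.0720). Cd4 passed the filter by its dermal values alone, so its sign and its call are not independent of the filter. Of the 3 tested T cell markers, 2 had positive estimates and 1, Lag3, a negative estimate (-0.67), and only Cd4 passed the test. Cd3e and Cd3d, which define T cells, lay below the filter and reached no more than 7 reads in a library. Cd3e had 1 read in dermal and 9 in inguinal libraries, and Cd3d had 1 and 3 reads. Of 2 Langerhans cell markers, Epcam reached no more than 2 reads in a library, and Cd207 was not analysed here. Keratinocyte markers were also higher in dermal libraries, with a summed level of 32.9 and 14.7 CPM against 2.53 and 1.75 CPM. Of 4 tested markers 3 passed, against 7.56% of all tested genes called in this direction. Krt5 and Krt15, keratins of the basal epidermis, had 91 and 70 reads in dermal and 1 and 1 reads in inguinal libraries, and Dsp, the gene of desmoplakin, had 300 and 7 reads; all 3 passed the filter by their dermal values alone. Krt10 did not pass, with 37 and 38 reads. The part of skin cells other than adipocytes in the class II differences was not tested.

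**Figure D4:**
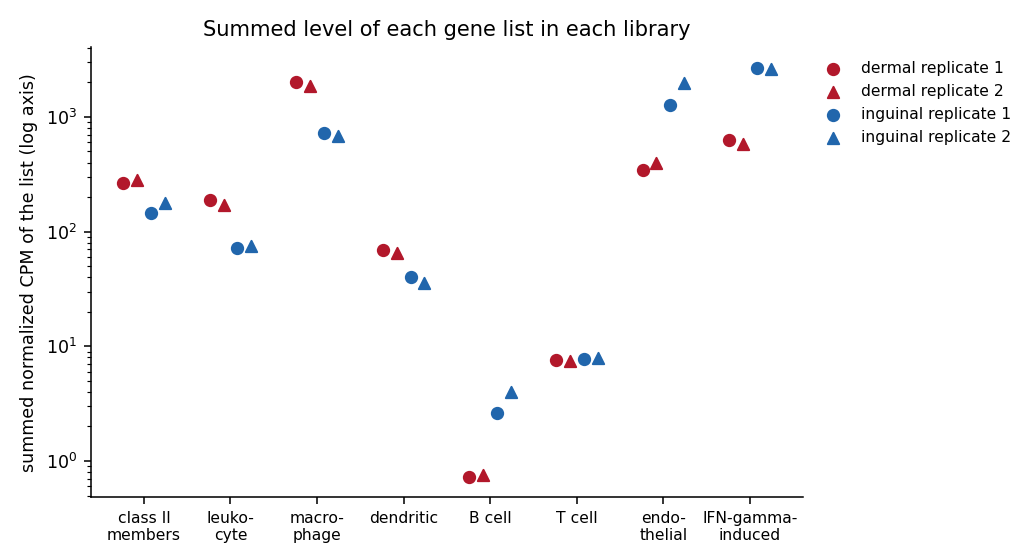
Summed normalized CPM, on a log axis, of the 10 members, of 6 lists of cell type markers and of the interferon-gamma-induced genes in each of the 4 libraries, with circles for replicate 1 and triangles for replicate 2. The members and the leukocyte, macrophage and dendritic lists are higher in both dermal libraries. The order of the dendritic list rests on Clec10a, a gene shared with macrophages. Clec10a makes up 48.4 of 69.2 CPM in dermal replicate 1 and 48.5 of 65.4 CPM in dermal replicate 2. Its part is 17.7 of 39.9 CPM in inguinal replicate 1 and 11.7 of 35.4 CPM in inguinal replicate 2. The B cell, endothelial and interferon-gamma-induced lists are higher in both inguinal libraries. The T cell list is at 7.49 to 7.95 CPM throughout.

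Genes outside the set were ranked by how closely their pattern followed that of the classical chains. Over the 4 libraries, centred log2 values were compared with the mean profile of H2-Aa, H2-Ab1 and H2-Eb1 by Euclidean distance. The 8720 candidates were tested genes with a mean of at least 10 CPM. All members were left out of them, so no member could be among the nearest. The 5 nearest were Ptprs (distance 0.029), Hdac5 (0.036), Cherp (0.049), Npdc1 (0.055) and Cuedc1 (0.056). Ptprs encodes a receptor phosphatase and Hdac5 a histone deacetylase. Cd74 lay at a distance of 0.125 and Cd86 at 1.01. With 4 libraries, a short distance describes 4 values and nothing more.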

How the data were processed

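The authors deposited a table of normalized CPM per gene, a signal whose columns sum to 960745 to 1074951, so that, from the values, a further factor was applied beside the library total. TopHat2 2.0.12, mm10, Picard 1.127, featureCounts from Subread 1.4.6, edgeR, FastQC and bcl2fastq appear in the submitters' processing notes, with no settings. Libraries were made with a stranded total RNA kit, per the labels' protocols. In each column 100% of values were whole multiples of the value of 1 read (0.0844 to 0.0969 CPM) within 0.001, which gave the reads. Groups came from sample titles. Logged values (log2 of CPM + 0.5) were fitted in R 4.3.3 with limma 3.58.1 and its intensity trend, a procedure tested on simulated data. Alternatives were edgeR 4.0.16 and DESeq2 1.42.0 on the recovered reads, other pseudocounts, filters and scalings, a replicate block and each library left out. Exon lengths and positions came from GENCODE M21, and 2 symbols were matched to older ones in the table. Exact binomial intervals cover counting error only, and reads are not known to be separate molecules. The members and lists were chosen with earlier results of these data known, and 2 listed genes are not reported here. The naming rule covered the passing genes of a list with the 4 lowest adjusted p-values and the 2 genes of highest mean level. Not every gene it covers is named, and the endothelial, fibroblast and monocyte lists are given by sums or left out. Adipoq, Brd2, Dexi, March1, Rfx5, Rfxap, Rfxank, Ifngr1, Ifngr2, Ifng, Tap1, Tap2, Psmb8, Psmb9, Ms4a1, Cd79a, Pax5, Blk, Flt3, Xcr1, Clec9a, Cd3e, Cd3d, Cd14, Mertk, Aif1 and Krt10 fall outside this rule and were chosen after their values were seen. The same holds for Siglech, Cd22 and Trem2.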

Additional observations from a re-analysis of the deposited data

How the results depend on the processing

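The count of members higher in dermal libraries was 4. It was 2 without the intensity trend and ranged from 1 to 5 with libraries left out in turn, where a depot with 1 library is assumed to vary like the other. Without the intensity trend 817 of the 12797 tested genes were called higher in dermal libraries, against 968 with it. Of the single members only Cd86 passed under all 14 alternatives. H2-Eb1 passed under 13, H2-Ab1 under 11, Cd74 under 9, H2-Aa under 2 and Cd80 under 1, and H2-DMa, H2-DMb1 and Ciita under none. The 9 tested members kept positive estimates under each alternative that tested them. Cd80 had a higher estimate than Cd86 with a pseudocount of 0.1 (1.79 against 1.67), edgeR (2.01 against 1.66), DESeq2 (2.04 against 1.65) and without dermal replicate 2 (1.59 against 1.51). The count of all genes called ranged from 1023 to 2636 with libraries left out. With the replicate number as a block it was 4726, of which 2342 were higher in dermal libraries, and 6 members passed, H2-Aa and Cd80 in addition. Same-numbered libraries of the 2 depots deviated together (r = 0.46 across 12797 genes, which are not independent), but the labels give the numbers no shared animal or batch, so the numbers were not taken as pairs. Ciita, Cd80, H2-Ob and H2-DMb1 rest on few reads, which limits their precision, and filtering at 5 CPM left Ciita, Cd80 and H2-DMb1 untested.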
